A study of Homo sapiens with 6 samples.

Results

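The genes described here write, copy, remove and read CpG methylation. They are DNMT1, UHRF1, DNMT3A, DNMT3B, TET1, TET2, TET3, MBD1 and KDM2B, 9 of the 20033 protein-coding genes of GENCODE release 44. They were grouped by function, with earlier results of these data known, and each was examined over its gene body plus 10000 bp on either side in hg38. Open chromatin was mapped by ATAC-seq, in which Tn5 transposase cuts accessible DNA, in MCF10A, an established line of human mammary epithelial cells that does not form tumors. All cells were wild type and were held in phosphate-free HHBSS for 30 min. They were then left untreated (control), given 50 μM TPA, a Zn2+ chelator, or given 30 μM ZnCl2, each for 30 min. There were 2 libraries per condition and 6 in all, and the controls received the same buffer. The study calls the replicates biological in its methods and technical in its results, so every p-value here measures only the spread between these libraries. The study asked how chromatin accessibility differs between Zn2+-poor and Zn2+-rich cells. TPA and ZnCl2 were compared with the same controls.

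Cytosine in CpG dinucleotides is methylated by DNA methyltransferases. DNMT1, brought to newly replicated DNA by UHRF1, copies existing marks, whereas DNMT3A and DNMT3B place new ones. The TET dioxygenases oxidise 5-methylcytosine, a step toward its removal, and need iron and 2-oxoglutarate. Several of these proteins also bind zinc as part of their fold: DNMT1, TET1, TET3, MBD1 and KDM2B carry a CXXC domain, which holds zinc and binds unmethylated CpG, whereas TET2 has lost it, and UHRF1, DNMT3A and DNMT3B have other zinc-binding domains. The lists describe chromatin at the genes and say nothing of the proteins, of RNA or of methylation itself.

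The RefSeq promoters (GRCh38.p14, 250 bases before to 50 after the start site) of all 9 genes were found, and they differed widely in CpG content. The median promoter of the 27305 in the table held 14 CpG, with quartiles of 3 and 28. TET3 held 45, UHRF1 36, DNMT1 30, MBD1 27 and DNMT3A 26. KDM2B held 15, TET2 13, TET1 10 and DNMT3B 3. The RefSeq start lies 17467 bp from the canonical GENCODE start for DNMT3B, 1001 bp for TET2, 558 bp for DNMT3A and 244 bp for MBD1. The promoters of these 4 genes therefore do not hold the start sites scored here, and their counts belong to other starts. The sequences that the results turn on follow, on the strand of the gene, with each CpG in capitals. They are a promoter that was open in all 6 libraries and ranked lower after treatment (DNMT1), the promoter at the upstream end of the DNMT1 gene that was not called after TPA (S1PR2), another promoter open in all 6 (UHRF1), both promoters with no call in any library (TET1 and KDM2B), and the central 300 bases of the strongest internal region (KDM2B region 2) and of a region absent after ZnCl2 (TET1 region 3). The promoters lie at chr19:10194904-10195203 (minus strand), chr19:10231282-10231581 (minus), chr19:4909251-4909550 (plus), chr10:68560087-68560386 (plus) and chr12:121580974-121581273 (minus), in that order. The internal stretches lie at chr12:121467011-121467310 (minus) and chr10:68666371-68666670 (plus) in hg38.
DNMT1 promoter: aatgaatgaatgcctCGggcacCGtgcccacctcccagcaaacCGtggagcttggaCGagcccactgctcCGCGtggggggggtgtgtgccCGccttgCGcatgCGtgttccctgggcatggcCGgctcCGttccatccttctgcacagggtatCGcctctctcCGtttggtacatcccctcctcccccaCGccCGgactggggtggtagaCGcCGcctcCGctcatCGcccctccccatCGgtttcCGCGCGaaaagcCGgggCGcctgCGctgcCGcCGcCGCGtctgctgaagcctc
S1PR2 promoter: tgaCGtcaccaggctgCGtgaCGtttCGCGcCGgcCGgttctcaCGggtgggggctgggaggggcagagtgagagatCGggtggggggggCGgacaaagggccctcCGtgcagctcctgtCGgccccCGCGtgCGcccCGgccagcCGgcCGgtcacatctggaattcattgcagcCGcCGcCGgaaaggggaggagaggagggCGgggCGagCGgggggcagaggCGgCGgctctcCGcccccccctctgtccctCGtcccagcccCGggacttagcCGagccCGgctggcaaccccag
UHRF1 promoter: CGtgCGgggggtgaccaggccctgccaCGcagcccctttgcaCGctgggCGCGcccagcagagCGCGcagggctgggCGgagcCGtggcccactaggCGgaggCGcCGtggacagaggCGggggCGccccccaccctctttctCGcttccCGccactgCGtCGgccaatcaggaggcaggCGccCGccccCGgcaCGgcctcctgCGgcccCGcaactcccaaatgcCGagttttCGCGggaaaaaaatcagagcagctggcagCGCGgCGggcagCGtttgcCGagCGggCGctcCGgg
TET1 promoter: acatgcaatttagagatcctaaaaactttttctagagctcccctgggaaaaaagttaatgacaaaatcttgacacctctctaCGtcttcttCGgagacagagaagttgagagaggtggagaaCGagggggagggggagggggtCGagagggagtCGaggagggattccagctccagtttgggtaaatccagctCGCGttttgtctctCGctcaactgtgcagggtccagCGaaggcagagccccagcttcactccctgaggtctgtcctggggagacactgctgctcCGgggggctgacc
KDM2B promoter: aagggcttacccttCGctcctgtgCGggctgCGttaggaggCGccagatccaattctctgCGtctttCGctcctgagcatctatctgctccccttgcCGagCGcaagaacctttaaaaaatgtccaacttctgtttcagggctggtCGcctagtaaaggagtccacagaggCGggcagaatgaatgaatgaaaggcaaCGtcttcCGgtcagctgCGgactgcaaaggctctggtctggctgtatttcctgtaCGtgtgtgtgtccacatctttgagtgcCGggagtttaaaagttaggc
KDM2B region 2: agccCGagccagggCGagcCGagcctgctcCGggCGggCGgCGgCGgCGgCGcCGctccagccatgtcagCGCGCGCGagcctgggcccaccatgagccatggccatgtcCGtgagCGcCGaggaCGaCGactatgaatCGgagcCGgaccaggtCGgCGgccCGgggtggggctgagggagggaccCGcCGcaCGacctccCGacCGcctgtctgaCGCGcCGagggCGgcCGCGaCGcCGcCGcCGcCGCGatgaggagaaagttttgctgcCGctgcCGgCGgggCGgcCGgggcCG
TET1 region 3: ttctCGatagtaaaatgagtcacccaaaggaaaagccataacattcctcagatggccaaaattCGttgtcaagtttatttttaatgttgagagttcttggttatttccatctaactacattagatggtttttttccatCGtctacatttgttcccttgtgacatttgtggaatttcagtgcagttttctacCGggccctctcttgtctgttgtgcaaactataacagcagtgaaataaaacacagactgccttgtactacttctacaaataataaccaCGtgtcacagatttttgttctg
The KDM2B stretch held 48 CpG in 300 bases at 77.3% GC, and the TET1 stretch held 5 at 37.0% GC.

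Letters of 3 known motifs were searched on both strands of the promoters, and none of them contains another. The core of the metal response element, TGCACNC or TGCGCNC, matched in the promoters of UHRF1 (2 matches), MBD1 (2), DNMT3A (1), TET3 (1) and KDM2B (1), and 29.3% of all promoters held a match. The E2F letters TTTCGCGC or TTTGGCGC matched 1 time in the DNMT1 promoter and 1 time in that of S1PR2, against 1.18% of all promoters. Among the members, GGGCGG, the GC box, matched in TET3 (3), UHRF1 (2) and TET2 (1), against 44.6% of all promoters. These are matches of letters and not measured binding.

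The lists differed in length and in what they covered. They held 18887 to 44641 regions on the assembled chromosomes, with control 1 (25031) and ZnCl2 2 (18887) the shortest, and spanned 35.7 to 94.2 Mb, with median widths of 1070 to 2070 bp. They hold no read counts, so the depth is unknown. Each region carries a whole-number score from the authors' caller, never below 30, and the measure used here is its percentile, the share of regions in the same list with a lower score. Of 8 basal mammary markers, 6 or 7 had an open start site in 5 libraries, but 2 in ZnCl2 2. The canonical start of TP63 was open in none. Of 4 luminal markers, GATA3 was open in all 6 libraries, KRT8 in both controls and ZnCl2 1 but in neither TPA library nor ZnCl2 2, and ESR1 and PGR in none. In addition, 0 of 6 markers of leukocytes, endothelium, liver and neurons were open in any library.

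At the start sites, DNMT1, UHRF1, TET2 and MBD1 were covered by an open region in all 6 libraries, DNMT3A and DNMT3B in 5, TET3 in 4, and TET1 and KDM2B in none. Thus 4 of 9 genes were open throughout, beside 43% of all protein-coding genes, and 2 of 9 were never open, beside 36.9%. Control libraries covered 6 and 7 of the 9 start sites, TPA libraries 7 and 7, and ZnCl2 libraries 7 and 4. The lowest count was in the library with the shortest list, which covered 46.3% of all genes against 50.5% to 60.8% in the others. Among the members covered, the median percentile was 44.8 and 73.4 in control cells, 33.1 and 40.1 after TPA, and 65.7 and 63.8 after ZnCl2, each below the median of all covered genes in the same library (65.1 to 80.1). Different members were covered in different libraries, so these medians do not compare conditions.

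**Figure D1:**
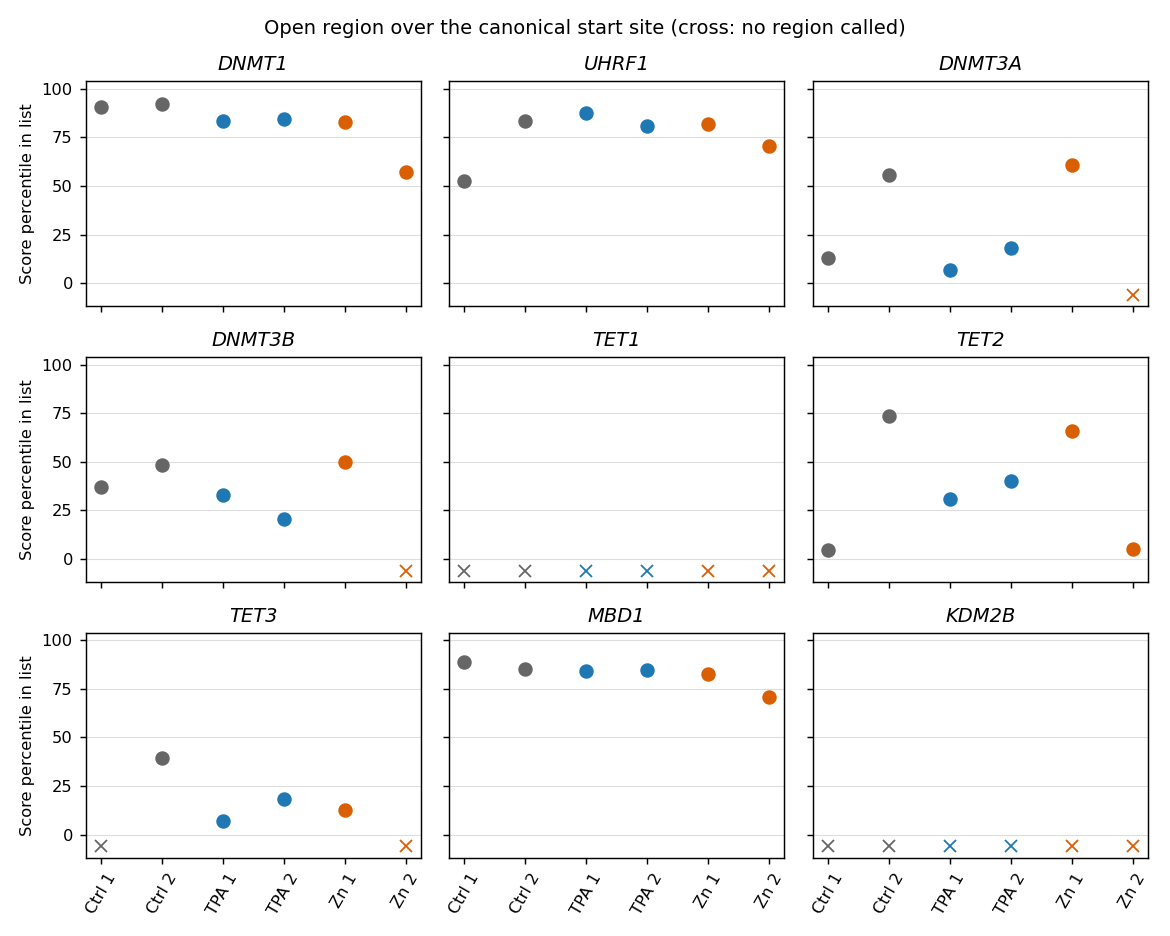
Percentile of the score of the open region over the canonical start site (vertical axis, 0 to 100) in each of the 6 libraries, 1 panel per gene. Circles are called regions and crosses mark libraries with no region over the start. DNMT1 ranked lower in all 4 treated libraries (57.0 to 84.3) than in both controls (90.4 and 92.2), and TET1 and KDM2B had no call at the start.

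DNMT1, the maintenance methyltransferase (ENSG00000130816.17, chr19:10133342-10231286, minus strand), had its start site covered in every library and had a lower rank in all 4 treated libraries than in the controls. The percentile was 90.4 and 92.2 in control cells, 83.6 and 84.3 after TPA, and 82.9 and 57.0 after ZnCl2. Neither treatment overlapped the controls, and the lowest value came from the shortest list. The controls averaged 91.3 ± 1.27 (SD, n = 2), the TPA libraries 83.9 ± 0.474 and the ZnCl2 libraries 70.0 ± 18.4. In the exact two-sided permutation test each difference gave p = 0.33, the smallest p that 2 libraries against 2 allow. Both TPA libraries were below both controls at 23.8% of the 8613 genes covered in all libraries, both ZnCl2 libraries at 13.3%, and all 4 treated libraries at 5.12%. With limma across those genes, on normal scores of the percentile, the difference was -0.37 ± 0.37 (SE) for TPA and -0.79 ± 0.37 (SE) for ZnCl2, both with an adjusted p of 0.9999. In normal scores the median over all genes moved by -0.04 after TPA and -0.14 after ZnCl2.

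The treated libraries of DNMT1 were also below both controls in lists of equal length. With each list limited to its 18887 highest regions, the percentile was 87.2 and 81.5 in control cells, 68.8 and 65.5 after TPA, and 65.6 and 57.0 after ZnCl2. Of 6798 genes covered throughout in these shortened lists, 8.58% had all 4 treated libraries below both controls. When DNMT1 was ranked only among start-site regions of the same genes, it stood at 78.8 and 69.1 in control cells, 61.5 and 56.6 after TPA and 46.9 and 36.5 after ZnCl2. The region was 1710 and 3020 bp wide in control cells, 1890 and 1870 bp after TPA and 1850 and 2530 bp after ZnCl2, so the widths overlapped between conditions. The genes whose 6 percentiles lay nearest to those of DNMT1 were RPL13A, a ribosomal protein gene (5.63 points away in Euclidean distance), EIF4H, a translation initiation factor gene (6.14), and NOCT (7.27).

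**Figure D2:**
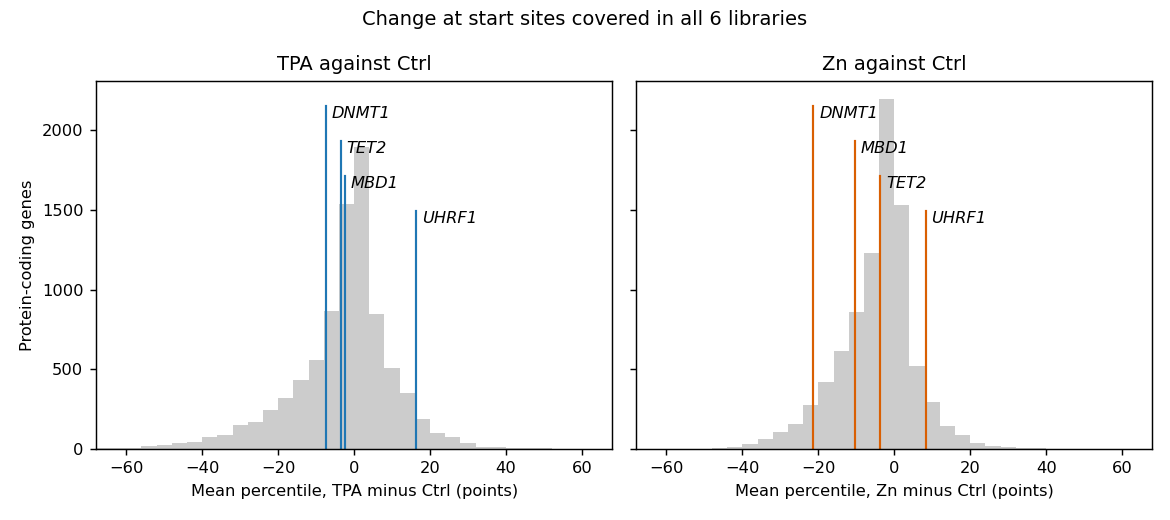
Number of protein-coding genes (vertical axis) by difference in mean percentile from the control (horizontal axis, points) for TPA on the left and ZnCl2 on the right, over the 8613 genes covered in all 6 libraries. Lines mark the 4 members tested: DNMT1 lay at -7.35 and -21.3 points, and UHRF1 at 16.3 and 8.25, or at 0.882 and -7.21 without control 1.

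Against all genes, the DNMT1 difference lay near the lower quartile for TPA and below it for ZnCl2. The difference in mean percentile was -7.35 points after TPA, with 26.6% of genes lower, and -21.3 points after ZnCl2, with 6.27% of genes lower. The ZnCl2 difference was -8.32 without ZnCl2 2 and -34.3 without ZnCl2 1. The TPA difference was -17.2 at equal list length and -14.9 among start-site regions. The middle of the distribution ran from -8.11 to 3.96 points after TPA and from -9.55 to 0.851 after ZnCl2 (quartiles).

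A second open region of DNMT1 sat at the upstream end of the gene, chr19:10229751-10231700, at -35772 bp from the canonical start (upstream of it). It covers the starts of 2 coding transcripts of DNMT1, of S1PR2, which encodes a sphingosine-1-phosphate receptor, and of MIR4322. It was 990 and 1950 bp wide in control cells at percentiles of 4.60 and 41.2, absent in both TPA libraries, 1520 bp wide in ZnCl2 1 at 48.4 and absent in ZnCl2 2. This was the only region in the windows of the 9 genes that was open in both controls and in neither TPA library, beside 0.805% of the 34393 merged regions around protein-coding genes. The call in control 1 was near the bottom of its list, and in the lists limited to equal length or to their upper 50% the region no longer met this rule. Of the 9 distinct starts of coding DNMT1 transcripts, 4 were open in all libraries.

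UHRF1, which recognises hemimethylated CpG and recruits DNMT1 (ENSG00000276043.5, chr19:4903080-4962154, plus strand), had overlapping groups, and the sign of its difference after ZnCl2 rested on control 1. Its percentile was 52.4 and 83.3 in control cells, 87.4 and 81.0 after TPA, and 81.7 and 70.6 after ZnCl2. Control 1, a short list, held the low value, and the other control lay within the range of the treated libraries. The difference in mean percentile was 16.3 points after TPA and 8.25 after ZnCl2, but 0.882 and -7.21 without control 1 and 31.8 and 23.7 without control 2. After ZnCl2 it was 2.72 without ZnCl2 1 and 13.8 without ZnCl2 2. The mean was 67.9 ± 21.9 (SD, n = 2) in control cells, 84.2 ± 4.51 (SD, n = 2) after TPA and 76.1 ± 7.83 (SD, n = 2) after ZnCl2. The limma difference was 0.49 ± 0.39 (SE) for TPA and 0.20 ± 0.39 (SE) for ZnCl2, again with an adjusted p of 0.9999. The widest UHRF1 call came from 1 library. The region was 1910 and 4410 bp wide in control cells, 4080 and 27760 bp after TPA, and 3890 and 4550 bp after ZnCl2. In TPA 2 a run of 27760 bp was called as 1 open region, where the other libraries had 2 or 3 separate calls in the same stretch. The log2 width differed by 1.88 ± 0.85 (SE) between TPA and control (limma adjusted p = 0.9959). Without TPA 1, so that the wide call stood alone for TPA, the difference was 3.26. The SE in that fit was 0.64 for every member tested, so it does not measure the spread of UHRF1 itself. That fit assumes that the lone TPA library varies like the other groups. KDM4B, a histone demethylase gene whose start lies in the downstream flank, was in the 95.3rd to 98.8th percentile in all 6 libraries.

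The de novo methyltransferase genes carried weaker start-site regions. DNMT3A (ENSG00000119772.19, chr2:25227855-25342590, minus strand) stood at percentiles of 13.1 and 55.8 in control cells, 6.79 and 18.1 after TPA, 60.8 in ZnCl2 1 and had no call in ZnCl2 2. The TPA and control values overlapped (exact permutation p = 0.667). DNMT3B (ENSG00000088305.19, chr20:32762385-32809359, plus strand) stood at 37.1 and 48.4 in control cells, 33.1 and 20.7 after TPA, 49.9 in ZnCl2 1 and again had no call in ZnCl2 2. For DNMT3B both TPA libraries lay below both controls, with a mean difference of -15.8 points (exact permutation p = 0.33) that was -9.63 without TPA 2 and -10.2 without control 2. The same order held at 23.8% of the genes covered in all libraries, a group that leaves out DNMT3B. DNMT3B was also not in the limma fit, which needed a call in every library. Ranked among start-site regions, its values were 10.5 and 0.836 in control cells and 7.19 and 1.59 after TPA, which overlapped.

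Within DNMT3A an intronic region of at most 1340 bp, 40035 bp downstream of the start, was open in 5 libraries, at percentiles of 16.8 and 52.3 in control cells, 18.6 and 43.7 after TPA and 40.2 in ZnCl2 1. Another 3 regions of DNMT3A were each called in 1 library. DNMT3B had 2 internal regions, around an alternative start 16845 bp downstream and in an intron 27905 bp downstream, each called in control 2 and ZnCl2 1 and in no other library. These libraries have the longer list of their condition. ZnCl2 2 had no open region anywhere in the windows of DNMT3A, DNMT3B or TET1.

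TET1, a 5-methylcytosine dioxygenase with a CXXC domain (ENSG00000138336.9, chr10:68560337-68694487, plus strand), had no region over its start and none within 500 bp of it. It was open instead at 3 places inside the gene, none of which holds an annotated start. Regions 1 and 2, 34178 and 39593 bp downstream of the start, were called in control 2, both TPA libraries and ZnCl2 1, with percentiles of at most 38.3. Region 3, chr10:68665851-68667190, lies 106183 bp downstream and overlaps an annotated exon. It stood at percentiles of 13.1 and 36.0 in control cells and 58.0 and 54.6 after TPA, and was absent in both ZnCl2 libraries. Its calls were 560 and 1340 bp wide in control cells and 560 and 580 bp after TPA. Both TPA values were above both controls, and how many other internal regions had that order was not counted. Region 3 was the only member region that was open in both controls and in neither ZnCl2 library (1.45% of regions around all genes). It was also the only member region open in both TPA and in neither ZnCl2 library (8.05%).

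TET1 region 3 changed class when weak calls were removed. In lists of equal length and in the upper 50% of each list, both TPA calls were kept and both control calls fell out, so that the region counted as open in both TPA and neither control library, beside 3.31% and 3.0% of the regions around all genes in those lists. The pair of contrasts after ZnCl2 rests in part on ZnCl2 2, the shortest list. ZnCl2 1, with 38069 regions, had no call there either. Region 3 held 0.970 CpG per 100 bp, near the low end of the member regions.

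**Figure D3:**
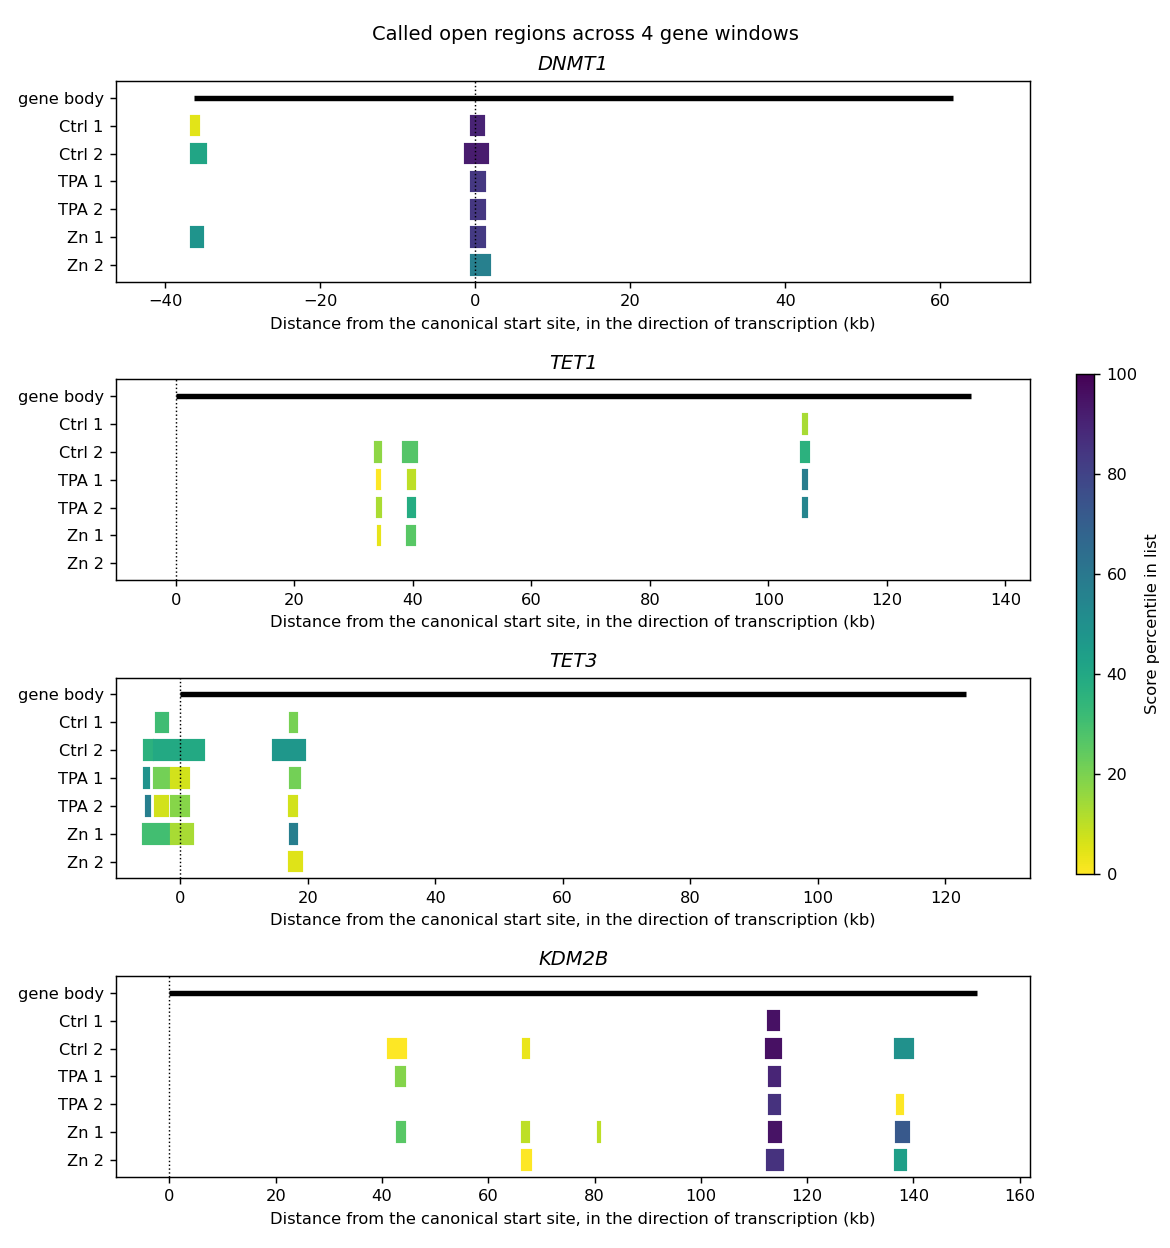
Open regions called in each of the 6 libraries (rows) across the windows of DNMT1, TET1, TET3 and KDM2B, by distance from the canonical start site in kb, with the gene body as a black bar, the start as a dotted line and the score percentile as color. The upstream DNMT1 region is missing from both TPA rows, the rightmost TET1 region from both ZnCl2 rows, and the strong KDM2B region 113863 bp from the start is present in all 6 rows.

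TET2, the dioxygenase without a CXXC domain (ENSG00000168769.14, chr4:105145875-105279816, plus strand), had a single open region in its window, over the start site, in all 6 libraries. Its percentile was 4.60 and 73.4 in control cells, 30.8 and 40.1 after TPA, and 65.7 and 4.90 after ZnCl2. The replicates of a condition differed more than the conditions did, and the low values were in the short lists. The means of 39.0 ± 48.6 (SD, n = 2), 35.5 ± 6.58 (SD, n = 2) and 35.3 ± 43.0 (SD, n = 2) overlapped in all comparisons, and the widths of 1280 to 3180 bp did as well.

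TET3 (ENSG00000187605.16, chr2:73984910-74108176, plus strand) had its start covered in control 2 (39.5), TPA 1 and 2 (6.79 and 18.1) and ZnCl2 1 (12.9). Its more constant region was over the start of another TET3 transcript, 17060 bp downstream, which was called in all 6 libraries. There the percentile was 20.4 and 47.0 in control cells, 21.2 and 6.68 after TPA, and 57.5 and 4.90 after ZnCl2, and the groups overlapped. Each TPA library had 4 calls in the TET3 window, against 2 and 3 in control cells and 3 and 1 after ZnCl2 (exact permutation p = 0.33 against each). Control 2 had a single call of 7850 bp over a stretch that was split into shorter calls in both TPA libraries. Call numbers also did not overlap for DNMT1 (TPA against control) and for TET1 and KDM2B (TPA against ZnCl2). How often call numbers separate in the windows of other genes was not counted. The open sequence there did not separate TPA from the control, with 7650 and 6720 bp against 2910 and 14230 bp.

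MBD1, a methyl-CpG binding repressor that also has CXXC domains (ENSG00000141644.19, chr18:50266882-50281774, minus strand), ranked high at its start among all open regions in all 6 libraries, but not among start-site regions alone. Its percentile was 88.8 and 85.0 in control cells, 84.2 and 84.9 after TPA, and 82.6 and 70.6 after ZnCl2. All treated values were below both controls, the nearest by a small margin. All 4 treated libraries were below both controls at 5.12% of the 8613 genes covered in all libraries. The means were 86.9 ± 2.69, 84.5 ± 0.493 and 76.6 ± 8.48 (SD, n = 2 each). The order of MBD1 was lost at equal list length, where control 2 (64.5) fell below both TPA libraries (69.9 and 66.8). It was also lost when MBD1 was ranked only among start-site regions. There it stood at 75.5 and 44.7 in control cells, 62.6 and 57.8 after TPA and 46.0 and 52.9 after ZnCl2. The limma differences were -0.11 ± 0.34 (SE) for TPA and -0.38 ± 0.34 (SE) for ZnCl2, with an adjusted p of 0.9999. An intronic region of MBD1, 2918 bp downstream of the start, was called in 5 libraries and not in ZnCl2 2. CXXC1, itself a CXXC-domain gene and a neighbor of MBD1, had an open start in the upstream flank in all 6 libraries.

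KDM2B, a histone demethylase that binds unmethylated CpG islands through its CXXC domain (ENSG00000089094.20, chr12:121429096-121581023, minus strand), resembled TET1 in having no call at or within 500 bp of its canonical start. It nevertheless held the strongest region away from a start site among the 9 genes. Region 2, chr12:121465561-121468760, lies 113863 bp downstream of the start, overlaps an exon, and is 1793 bp from the nearest annotated transcript start of the gene. Its percentile was 95.4 and 96.0 in control cells, 89.6 and 85.9 after TPA, and 95.3 and 85.7 after ZnCl2, so that both TPA values were below both controls and the ZnCl2 libraries differed from each other. It was 2150 and 2890 bp wide in control cells, 2030 and 2090 bp after TPA and 2270 and 3000 bp after ZnCl2. The region held 264 CpG, or 8.25 per 100 bp, with an observed-to-expected CpG ratio of 0.860. No test across all genes covered it, because it is not at a start site. How many other internal regions share its order of TPA below control was not counted.

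The weaker KDM2B regions varied by library. Region 4, chr12:121513001-121514610, was called in control 2, ZnCl2 1 and ZnCl2 2 at percentiles of 3.26, 9.89 and 0, and in neither TPA library. It was the only member region open in both ZnCl2 and in neither TPA library, beside 0.991% of regions around all genes, and each of its calls was near the lowest score of its list. Region 1, over the start of MIR7107, stood at 49.7 in control 2, 0 in TPA 2, 72.4 in ZnCl2 1 and 43.9 in ZnCl2 2, and was not called in control 1 or TPA 1. Region 5, over the start of another KDM2B transcript, was called in control 2, TPA 1 and ZnCl2 1.

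Taken over all windows, 27 merged regions were found at the 9 genes. Of these, 8 (29.6%) were open in all 6 libraries, beside 37.4% of the regions around all protein-coding genes, and 4 (14.8%) in 1 library, beside 14.7%. No member region was open in both TPA and neither control library (1.81% of regions around all genes) or in both ZnCl2 and neither control library (0.102%). These counts moved with single libraries. Without control 2 they were 3 of 29 regions (10.3%, beside 19.3% around all genes) and 2 (6.90%, beside 3.13%). Without TPA 1 the first was 1 (3.70%, beside 5.91%), and without ZnCl2 2 the second was 3 (11.1%, beside 5.84%). Without control 1, 4 regions (14.8%, beside 11.9%) were open in control cells and not after TPA. Without ZnCl2 1, 8 of 25 (32.0%, beside 14.1%) were open in both controls and 10 of 25 (beside 29.8%) in both TPA libraries but not in ZnCl2 2. Without TPA 1, 2 (7.41%, beside 15.5%) were open after TPA and not after ZnCl2. Without ZnCl2 2, 7 (25.9%, beside 10.9%) were open after ZnCl2 and not after TPA, and without TPA 2 this was 2 (7.41%, beside 2.08%).

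**Figure D4:**
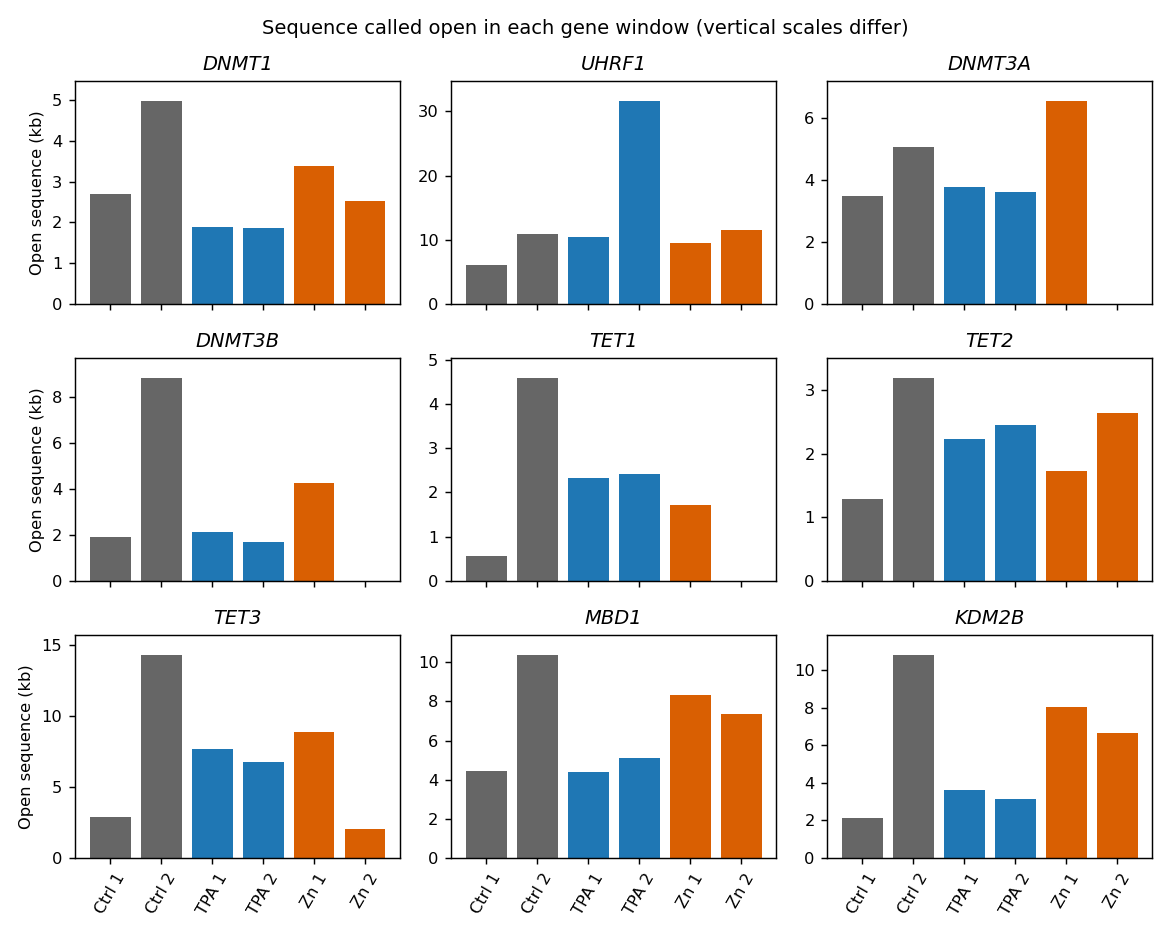
Sequence called open (vertical axis, kb, from 0, scales differ between panels) in the window of each gene in each library, 1 bar per library. Both TPA bars of DNMT1 (1890 and 1870 bp) are below all others, and the UHRF1 bar of TPA 2 (31580 bp) contains the run of 27760 bp.

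The open sequence in all 9 windows followed the size of the lists. It was 25410 and 72823 bp in control cells, 38379 and 58629 bp after TPA, and 52399 and 32820 bp after ZnCl2. Per Mb of open sequence in the list this came to 712 and 773 bp, 730 and 758 bp, and 807 and 740 bp, and the conditions overlapped. By gene, DNMT1 had less open sequence in both TPA libraries (1890 and 1870 bp) than in control cells (2700 and 4970 bp) or after ZnCl2 (3370 and 2530 bp). MBD1 had less after TPA (4400 and 5120 bp) than after ZnCl2 (8310 and 7380 bp), as did KDM2B (3610 and 3160 bp against 8060 and 6670 bp). TET1 had more after TPA (2330 and 2420 bp) than after ZnCl2 (1720 and 0 bp). Each of these gave an exact permutation p of 0.33, and the other open-sequence comparisons overlapped. How often the windows of other genes separate in this way was not counted, so these orders cannot be called particular to the members.

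CpG content differed by where a region lay. The 7 merged regions over canonical start sites held 3.03 to 9.34 CpG per 100 bp, with a median of 4.0. These densities are over the merged span of all libraries and so depend on its width. The lowest, 3.03, was UHRF1 region 1, whose span of 27760 bp is set by the wide call of TPA 2. The 12 inside genes with no start site held 0.821 to 8.25, with a median of 1.85, and KDM2B region 2 was the highest of them. DNMT3A region 5, over its start, held the most of all 27, at 9.34 per 100 bp, although its percentiles were low to intermediate.

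**Figure D5:**
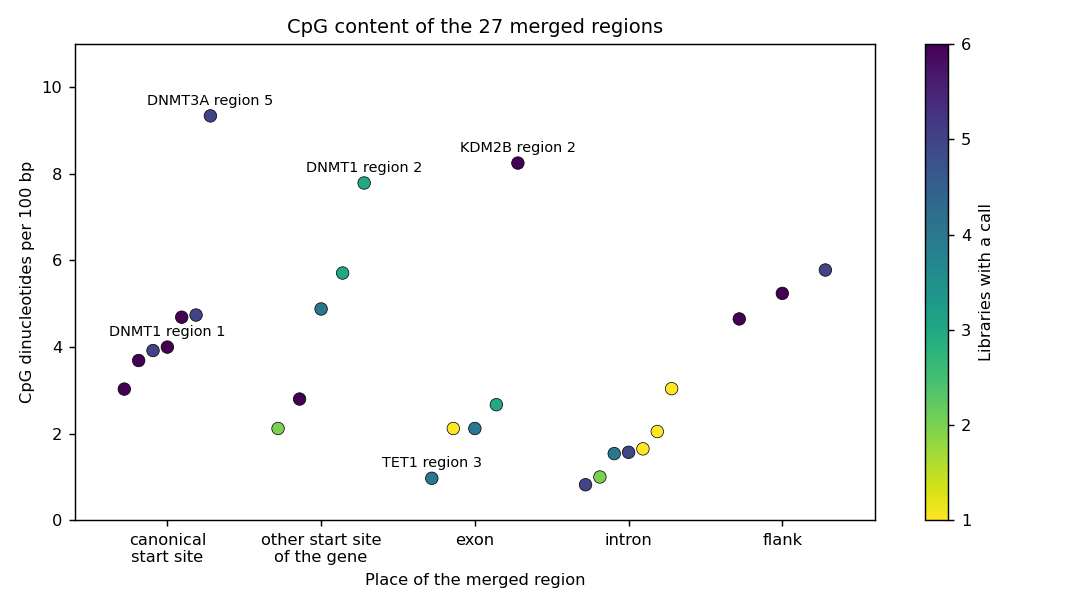
CpG dinucleotides per 100 bp (vertical axis) of the 27 merged regions by their place relative to the gene (horizontal axis), with color for the number of libraries that called the region. KDM2B region 2 (8.25 per 100 bp, 6 libraries) stands above the other exonic and intronic regions, and TET1 region 3 (0.970, 4 libraries) is near the bottom.

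Across the start sites, limma called 0 members for score or width in any comparison at an adjusted p under 0.05, with 4 members tested (DNMT1, UHRF1, TET2 and MBD1). Over all 8613 genes it called 0% of genes on score in each of the 3 comparisons, and on width 0.139% for TPA against control, 0% for ZnCl2 against control and 0.174% for TPA against ZnCl2. At an unadjusted p under 0.05 there were 502, 132 and 767 genes for score and 133, 65 and 341 for width, in the same order, and 0 of the 4 members. Rescaling changed the number called at the adjusted threshold for all genes but not for the members. At equal list length 298, 0 and 642 genes were called on score, and with quantile-normalized log2 scores 487, 4 and 1383, with 0 members called in each. TET2 was not tested at equal list length. There DNMT1 had unadjusted limma p of 0.0279 for TPA (adjusted 0.172) and 0.00968 for ZnCl2 (adjusted 0.5995). On quantile-normalized scores unadjusted limma p was 0.00468 for DNMT1 after ZnCl2 (adjusted 0.220) and 0.0211 for UHRF1 after TPA (adjusted 0.149). Both TPA libraries were above both controls at 10.3% of genes and both ZnCl2 libraries at 2.54%, and no member tested was among either group. TPA was below ZnCl2 at 17.8% of genes and above at 21.5%. DNMT1 and MBD1 were above, where TPA lay at 83.6 and 84.3 and at 84.2 and 84.9 (exact permutation p = 0.33 each).

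The wider pathway was read from a list of 35 further genes. Start sites of 23 were open in all libraries, of 9 in some and of 3 in none. The 3 were DNMT3L and DPPA3, which act in germ cells and early embryos, and ZFP57, an imprinting factor. Among the 9 were USP7, which stabilises DNMT1 and UHRF1, HELLS and CDCA7, the remodeler and its partner, AHCY, which removes S-adenosylhomocysteine, and OGT, each with a call in at least 2 libraries, together with ZNF445, ZBTB4 and CXXC4. USP7 was missing in TPA 1 only, and HELLS, CDCA7 and AHCY in ZnCl2 2 only.

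None of the 23 genes passed the limma test on score or width in any comparison at the adjusted threshold. The genes named next were picked out after their values were seen. Both TPA libraries were below both controls for 4 genes, PCNA, KMT2A, KMT2B and FBXL19, beside 23.8% of all genes. They were above for 5, XRCC1, MBD4, ZBTB38, CXXC1 and GADD45B, beside 10.3%. FBXL19, a CXXC-domain gene related to KDM2B, stood at 96.6 and 94.2 in control cells, 68.1 and 76.5 after TPA, and 88.5 and 77.9 after ZnCl2. The TPA libraries were the lowest, by -1.10 ± 0.35 (SE) in normal scores against the control (limma adjusted p = 0.486). KMT2A, a histone methyltransferase with a CXXC domain, stood at 77.8 and 82.6, then 53.7 and 53.2, then 69.2 and 25.3. At equal list length both FBXL19 (adjusted p = 0.0264) and KMT2A (adjusted p = 0.0445) were called as lower after TPA than in control cells, which is 2 of 21 genes (9.52%) beside 4.38% of all genes. GADD45B, a stress-response gene linked to demethylation, stood at 34.2 and 42.8 in control cells, 74.2 and 72.1 after TPA, and 52.5 and 21.6 after ZnCl2, and was called as higher after TPA only on quantile-normalized log2 scores (adjusted p = 0.0174 against the control and 0.0228 against ZnCl2). On that scale FBXL19 was again lower after TPA than in control cells (adjusted p = 0.0122), and ZBTB38 (adjusted p = 0.0482) and CXXC1 (adjusted p = 0.0327) were higher after TPA than after ZnCl2. These fits called 2 of the 23 genes (8.70%) beside 5.65% of all genes for TPA against control, and 3 (13.0%) beside 16.1% for TPA against ZnCl2. ZnCl2 was below both controls for 6 of the 23 genes, beside 13.3% of all genes, and above for 0, beside 2.54%.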

How the data were processed

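ATAC-seq was performed on 6 MCF10A libraries, 2 per condition. Per the labels and the study's methods, the authors trimmed adapters, checked reads with FastQC 0.11.8, mapped pairs to hg38 with HISAT2 2.1.0, indexed alignments with SAMtools 1.8 and ran HMMRATAC on every library by itself to call open regions. Each deposited list gives region coordinates and a whole-number score of the authors' caller. The version of HMMRATAC and the kind of score are not given in the sources used here. Without read counts the depth is unknown. The blacklist that the authors applied after merging was not used here.

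The member genes, pathway and marker lists were chosen with earlier results of these data known. Only the assembled chromosomes were used (72 to 203 regions per list lay on other contigs), and no region ran past a chromosome end of the hg38 sequence. Gene windows were the GENCODE 44 gene plus 10000 bp, and the start site was that of the canonical transcript. The region covering it gave a width and a score percentile. Regions of the 6 lists were merged where they overlapped or touched, and a library counted as open with at least 1 bp of overlap. limma 3.58.1 (R 4.3.3) fitted 1 mean per condition over all 6 libraries to the normal score of the percentile, and to log2 width, of the 8613 protein-coding genes covered in all libraries, with Benjamini-Hochberg adjustment over those genes and a threshold of 0.05. Single values were compared by two-sided exact permutation tests, whose smallest p is 0.33. All members were named. So were every region open in both libraries of a condition and neither of another, and the strongest region away from start sites. Other genes with a start in a described region were named, and pathway genes that were called or covered in fewer than 6 libraries. Genes that start in a merged start-site region but were not described above are ARRDC5 (UHRF1) and DGUOK-AS1 and ENSG00000235499 (TET3). Some genes of the pathway and marker lists are not reported by name here. The pathway genes whose conditions did not overlap were named after their values were seen. Alternatives were a replicate block, no filter, lists of equal length, the upper 50% of each list, the 5′ end of the gene, other scalings, a 50% overlap, no flank and each library left out. Scripts were tested on simulated data. Python 3.11.15, NumPy 2.4.6, pandas 2.3.3, SciPy 1.17.1 and Matplotlib 3.10.9 were used.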

Additional observations from a re-analysis of the deposited data

How the results depend on the processing

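With 2 libraries per condition and no read counts, no single value could reach a permutation p under 0.33, and calls near the lowest score of a list came and went with its length. No member was called on score under any alternative, and with the replicate block 0 members were called in every comparison on score and width. The difference between replicates 1 and 2 was correlated between conditions over 8613 genes. The correlations were 0.13 for control and TPA, -0.26 for control and ZnCl2 and -0.07 for TPA and ZnCl2. They cannot tell whether same-numbered libraries were prepared together. The block gave 1, 0 and 3 genes on score and 15, 0 and 21 on width for TPA and ZnCl2 against control and TPA against ZnCl2. Leaving out 1 library changed a member call only for UHRF1 on width, without TPA 1. The log2 width differences there were 3.26 for TPA against control and 2.72 for TPA against ZnCl2. That fit rests on 1 TPA library and gave every member tested the same SE (0.64), so it does not measure the spread of UHRF1 itself. Over all genes on score, equal list length gave 298 (11 higher, 287 lower) for TPA against control and 642 (81 higher, 561 lower) for TPA against ZnCl2, and quantile-normalized log2 scores gave 487 (150 higher, 337 lower), 4 (2 and 2) and 1383 (621 higher, 762 lower). The unfiltered fit gave 11 for TPA against ZnCl2, the upper 50% of lists gave 2 for TPA against control and 2 for TPA against ZnCl2, and leaving out ZnCl2 1 gave 143 for the latter.

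Member regions open in both libraries of the first condition and neither of the second were counted as follows, with the share of regions around all genes under the same setting in parentheses. For TPA and control there were 2 of 16 at equal list length (3.31%) and 1 of 16 in the upper 50% (3.0%), with 0 to 3 when 1 library was left out. For control and TPA there were 0 (5.31%) and 0 (2.09%), with 1 to 4. For ZnCl2 and control there were 2 at equal length (3.19%), with 0 to 3. For control and ZnCl2 there were 0 at equal length (3.0%), 0 in the upper 50% (2.00%) and 0 at 50% overlap (1.29%), with 1 to 8. For TPA and ZnCl2 there were 2 at equal length (6.15%), with 1 to 10. For ZnCl2 and TPA there were 3 at equal length (9.14%), 0 in the upper 50% (2.14%) and 3 of 27 at 50% overlap (5.99%), with 1 to 7. Members with an open start in all libraries numbered 1 at the 5′ end of the gene (MBD1) and 4 to 6 with 1 library left out. They numbered 3, without TET2, both at equal list length and in the upper 50% of each list. Under these 2 settings 6798 and 5334 of the 20033 protein-coding genes were open throughout. The median log2 width of all genes moved by -0.20 with TPA and 0.11 with ZnCl2 against the control. Of 42 percentile differences of members under other settings 2 changed sign, and of 56 with a library left out 7 did. The cause of these changes was not tested.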

Other observations

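Genes that start in or at the edge of the windows differed in how they ranked beside the member. KDM4B, next to UHRF1, was between the 95.3rd and 98.8th percentile in all 6 libraries. MAPRE1, which encodes a microtubule plus-end protein and starts downstream of DNMT3B, stood at 76.6 and 89.5 in control cells, 94.7 and 87.9 after TPA and 75.7 in ZnCl2 1, with no call in ZnCl2 2. Its call in control 1 began just past the window. Its DNMT3B neighbor stood at 20.7 to 49.9 in the same 5 libraries. CXXC1, upstream of MBD1, stood at 39.9 and 75.3 in control cells, 78.4 and 79.0 after TPA and 70.0 and 28.7 after ZnCl2. It was below MBD1 in each library. Both TPA libraries were above all others, by a small margin over control 2, and how many genes share that order was not counted. In the main fit on score the limma adjusted p was 0.9999 for TPA against control and 0.603 for TPA against ZnCl2. The region over the S1PR2 start was below that of DNMT1 in the 3 libraries that called it.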
